A study of Mus musculus with 4 samples.

Results

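The genes encoding ubiquitin-conjugating (E2) enzymes and ubiquitin-specific proteases (USPs) were examined in mouse peritoneal macrophages treated with LPS or PBS. Every gene that carried a single symbol starting with *Ube2*, or with *Usp* and a digit, was taken, apart from *Ube2l6* and *Usp18*, which serve the ubiquitin-like modifier ISG15. This gave 79 genes of the 19938 measured, 30 named *Ube2* and 49 named *Usp*, with 98 probes. Because the choice went by symbol, it also took in *Usp6nl*, which encodes an activator of RAB5 GTP hydrolysis and not a protease, and *Ube2cbp*, an older symbol of the ubiquitin ligase gene *Ube3d*. *Ube2v1* and *Ube2v2* encode E2 variants without a catalytic cysteine, and *Usp39* encodes a USP-like protein without known protease activity.

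Ubiquitin is activated by an E1 enzyme, passed to the active cysteine of an E2 and placed on a target protein with the help of an E3 ligase. The E2 often sets which kind of chain is built, and USPs, the largest family of deubiquitinases, cut ubiquitin off again. In macrophages, LPS acts through Toll-like receptor 4, whose signalling to NF-κB runs through K63-linked and linear ubiquitin chains on adaptor proteins, so that enzymes of both kinds are known as regulators of the response. The roles given below are those known from mammalian cells, human and mouse.

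Of the 4 samples, 2 had received 100 ng/ml LPS, a bacterial cell wall component, and 2 had received PBS. All were cultured peritoneal macrophages of unmodified C57BL/6 mice, and the labels give 6 h of treatment and no age. Each RNA, labelled with Cy5, was put on 1 Mouse OneArray Plus array of its own. Replicates 1 and 2 are called biological, but whether they stand for different mice or wells is not stated, and the p-values therefore cover no more than the spread among these 4 samples. Values are quantile-normalized signals in arbitrary units. A probe was taken as above background on an array where its deposited detection p-value was under 0.05, and the brightest probe stood for a gene.

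The array of LPS replicate 1 was the dimmest. Its median raw signal was 683, against 1054 for LPS replicate 2, 1026 for PBS replicate 1 and 1047 for PBS replicate 2, and 55.8% of its probes were above background, against 61.7% to 63.3% on the other 3. The 6 measured macrophage markers of 7 listed, such as *Adgre1*, *Csf1r* and *Cd68*, were above background on all 4 arrays. Their summed signal was 695874.2 and 562951.6 with LPS, against 781306.5 and 645819.1 with PBS. *Cd68* made up the largest part of it. *Csf1r* was lower with LPS (77297.5 and 58803.3, against 175680.8 and 127408.2 with PBS). *Mertk* and *Fcgr1* were higher, and *Fcgr1* passed the test (limma adjusted p = 0.0348). The 5 markers of large peritoneal macrophages summed to 32673.8 and 35215.2 with LPS, against 29155.8 and 34593.4 with PBS. *Timd4* among them was higher with LPS (limma adjusted p = 0.0538), and *Gata6*, *Icam2*, *Prg4* and *Alox15* overlapped. Markers of other cells were mixed. *Ms4a1* of B cells, *Cd3d* of T cells, *Kit* of mast cells, *S100a8* of neutrophils and *Col1a1* of fibroblasts were not above background on any array. Other genes of the same lists were above background on all 4, such as *Cd79a*, *Cd79b* and *Pax5* of B cells (3 of 5 listed), *Cd3e*, *Cd3g* and *Cd8a* of T cells, *Cpa3* and *Tpsb2* of mast cells, *Mpo* of neutrophils and *Dcn* and *Col3a1* of fibroblasts. The summed signals of 4 other lists did not overlap between the groups. The 5 T cell genes (3 above background on all arrays) summed to 11768.6 and 13857.6 with LPS and to 8043.9 and 7693.9 with PBS. That sum followed *Lck*, which had 5049.5 and 6867.5 with LPS and 475.5 and 489.2 with PBS. *Lck* passed the test (limma adjusted p = 0.0046) and was not above background with PBS. *Cd3e* had 3389.3 and 4114.5 with LPS and 5114.7 and 4941.8 with PBS. *Cd3d* also lay lower with LPS, and *Cd3g* and *Cd8a* lay higher. The 4 measured mast cell genes (2 above background on all arrays) summed to 15573.0 and 14037.2 with LPS and to 11453.5 and 11369.9 with PBS. Most of that sum was *Tpsb2*, with 14410.2 and 12123.3 with LPS and 9180.5 and 9002.5 with PBS. *Cpa3* lay the other way, with 771.5 and 1354.6 with LPS and 1925.0 and 1884.7 with PBS. The 4 measured neutrophil genes (1 above background on all arrays) summed to 3517.7 and 3077.0 with LPS and to 2584.0 and 2799.9 with PBS. Most of that sum was *Mpo*, with 2793.5 and 2451.5 with LPS and 1723.5 and 1848.5 with PBS. *S100a8*, *S100a9* and *Elane*, not above background with LPS, were fitted lower with LPS. The 2 measured erythroid genes, both above background throughout, summed to 3271.7 and 2835.7 with LPS and to 2128.3 and 2249.1 with PBS. The part of these cells in the results below was not tested. In bulk RNA of this kind, fewer cells of a type and less RNA per cell cannot be told apart.

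Most E2 and USP genes were readily measured in these cells. Of the 79, 67 were above background on all 4 arrays and 8 on some. Only *Ube2cbp*, *Usp50*, *Usp51* and the Y-linked *Usp9y* were above background on none. Over all genes, 59.7% were above background on all 4 arrays and 25.9% on none.

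Most genes of this group had small fitted changes between LPS and PBS, and 3 passed the test. *Usp25* and *Usp42* rose, and *Usp2* was lower with LPS at signals near or below background. That is 3.8% of the 79 genes, against 5.54% of all genes (1104 of 19938; limma, Benjamini-Hochberg adjusted p under 0.05). By direction, 2 of the 79 were higher, against 3.22% of all genes, and 1 was lower, against 2.32%. No E2 gene was called out of 30, and 3 of 49 USP genes were. At an unadjusted limma p under 0.05 the counts were 10 of 30 E2 genes (33.3%), 5 higher and 5 lower, and 10 of 49 USP genes (20.4%), 6 higher and 4 lower. For the 79 together this made 20 genes (25.3%, against 25.9% of all genes), 11 higher, against 12% of all genes, and 9 lower, against 13.9%. The groups did not overlap for 48 of the 79 genes (60.8%), against 59.7% of all genes, with LPS above PBS for 29, against 32.2% of all, and below for 19, against 27.5%. Taken apart, the groups did not overlap for 21 of 30 E2 genes (70%) and 27 of 49 USP genes (55.1%). More of these genes than of all genes were above background. Among genes above background on all 4 arrays, 2.99% of the E2 and USP genes were called, against 7.17% of all such genes. At an unadjusted limma p under 0.05 the shares were 23.9% and 31.4%, and for groups not overlapping 59.7% and 65.9%.

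*Usp25* encodes a deubiquitinase that acts on TRAF3 and other adaptors of Toll-like receptor and IL-17 receptor signalling. Its signal was 37971.2 and 42206.3 on the LPS arrays, against 8512.2 and 6880.5 on the PBS arrays. Both LPS arrays lay far above both PBS arrays, and the replicates of each group lay close together. On the log2 scale the means were 15.29 ± 0.11 with LPS and 12.90 ± 0.22 with PBS (SD, n = 2 each). The fitted change was 5.23-fold, a log2 fold change of 2.39 (SE 0.23, 95% interval 1.81 to 2.96, limma adjusted p = 0.00967). Leaving out a PBS array raised the adjusted p above the threshold, to 0.0689 for replicate 1 and 0.108 for replicate 2.

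*Usp42* encodes a nuclear deubiquitinase known to act on p53 and histone H2B. Its signal was 8728.1 and 11315.0 with LPS, against 3432.9 and 3180.6 with PBS, so that the groups were well apart here too. The change was 3.01-fold, a log2 fold change of 1.59 (SE 0.23, 95% interval 0.99 to 2.18, limma adjusted p = 0.0299). This call was lost when any 1 of the 4 arrays was left out, with an adjusted p between 0.0601 and 0.214.

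*Usp2* encodes a deubiquitinase of cyclin D1 and of proteins of the circadian clock. Its signal was 96.5 and 124.2 with LPS, against 316.2 and 596.3 with PBS. It was above background on neither LPS array and on 1 of the 2 PBS arrays, so no fold is given. The log2 means were 6.77 ± 0.26 with LPS and 8.76 ± 0.65 with PBS (SD, n = 2 each; limma adjusted p = 0.0494). Leaving out any 1 array ended the call, with an adjusted p between 0.0934 and 0.197.

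**Figure D1:**
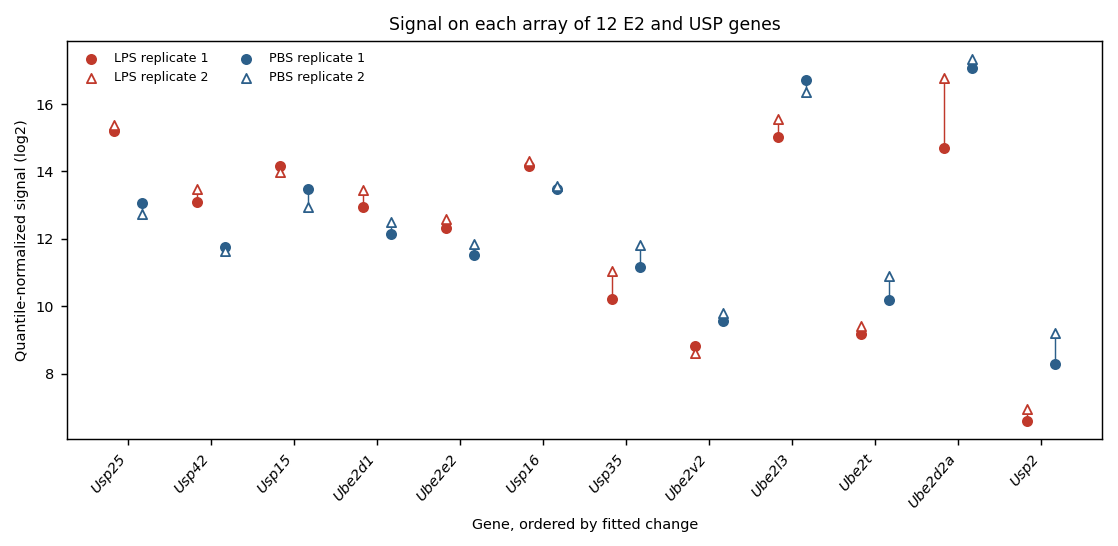
Quantile-normalized signal (log2 axis, arbitrary units) of the 12 E2 and USP genes given with full statistics, with LPS arrays in red left of PBS arrays in blue, circles for replicate 1, triangles for replicate 2 and a line joining the replicates of a group. The LPS arrays of *Usp25* and *Usp42* sit well above their PBS arrays, and the LPS replicates of *Ube2d2a* lie 2.07 apart on the log2 scale.

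The remaining 76 genes did not pass the test, and a p that misses the threshold does not show that a gene was unchanged. The largest positive log2 fold change among them was 0.88. The median size of change over all 79 genes, sign dropped, was 0.276 on the log2 scale, against 0.398 over all genes. A change of 2-fold or more was found for 7 of the 79 (8.86%), against 14.5% of all genes, with 2 higher, against 5.34% of all, and 5 lower, against 9.19%. The median change with its sign was 0.085 for the 79 genes and 0.038 for all genes. The standard error of these genes lay between 0.20 and 0.68. In data simulated for this comparison the test recovered 0% of 2-fold and 42.4% of 5-fold changes. The simulation gave 69 calls, against 1104 in the real fit, so a call needed a smaller unadjusted p there. Its shares therefore do not carry over directly to the real fit.

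**Figure D2:**
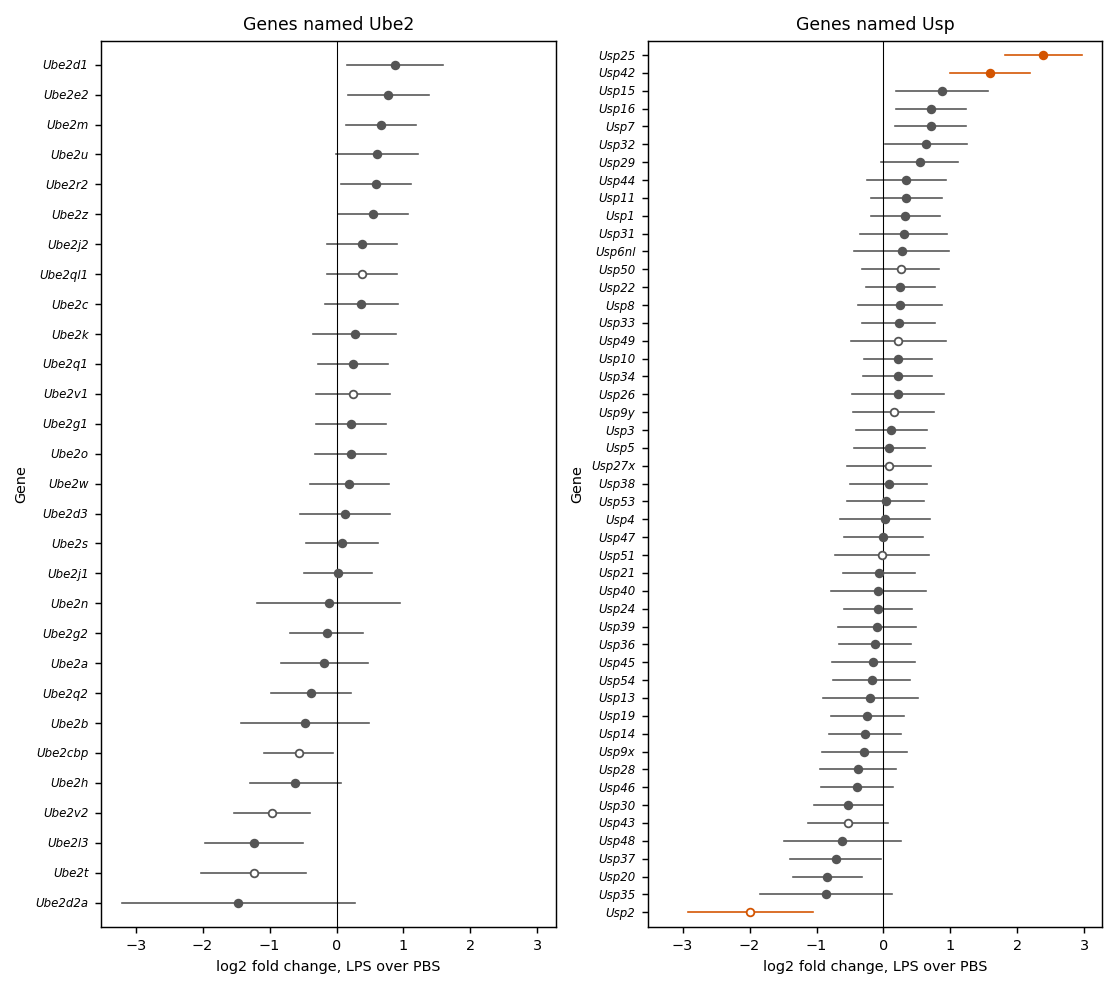
Fitted log2 fold change, LPS over PBS, with its 95% interval for 29 of the 30 *Ube2* genes (left panel) and the 49 *Usp* genes (right panel). Orange marks the 3 genes past the test, and open circles mark genes not above background on all 4 arrays.

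**Figure D3:**
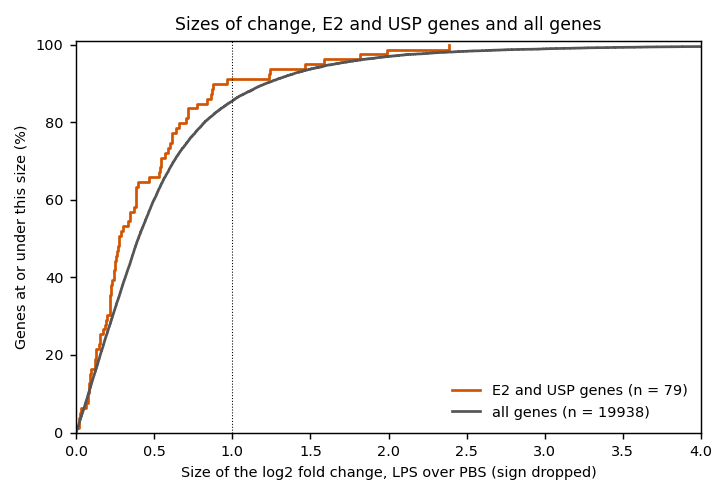
Share of genes (percent, vertical axis) at or under each size of log2 fold change between LPS and PBS (sign dropped, horizontal axis, shown up to 4) for the 79 E2 and USP genes and all 19938 genes, with a dotted line at a 2-fold change. The curve of the E2 and USP genes lies above that of all genes over most of the range, with median sizes of 0.276 and 0.398.

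Among the E2 enzymes, the group of the UBE2D and UBE2E families, *Ube2l3*, *Ube2h* and *Ube2w* was spread in both directions. *Ube2d1*, which encodes a broadly used partner of RING ligases, had signals of 7823.1 and 11253.5 with LPS and of 4557.7 and 5763.4 with PBS (log2 fold change 0.87, SE 0.28, limma adjusted p = 0.140). *Ube2e2*, of a related family, had 5134.7 and 6105.1 with LPS and 2922.5 and 3658.8 with PBS (0.78, SE 0.24, adjusted p = 0.129). Both genes had higher signals on each LPS array than on either PBS array, without passing the test. *Ube2l3* encodes the E2 used by the ligase complex that builds linear chains, and its signals lay the other way, at 33260.5 and 48639.7 with LPS, against 107476.8 and 83396.2 with PBS (log2 fold change −1.24, SE 0.29, adjusted p = 0.0785). *Ube2d2a*, the close relative of *Ube2d1* listed on the array as *Ube2d2*, gave 26774.0 and 112253.3 with LPS, against 138589.5 and 165758.0 with PBS (log2 fold change −1.47, SE 0.68, adjusted p = 0.247). Here the array of LPS replicate 1 stood apart from the other 3. The log2 fold change was −0.43 without that array and −2.49 without LPS replicate 2 (adjusted p = 0.0341). The 5 mesothelial and fibroblast markers (3 above background on all arrays, 1 on none) also had their lowest sum on this array, 54414.4, with 213795.8 on LPS replicate 2, against 150916.2 and 201761.4 with PBS. That sum followed *Dcn*, with 47644.0 and 182467.7 with LPS, against 139740.2 and 169901.3 with PBS, and *Upk3b*, while *Col1a1* and *Col3a1* were not lowest on it. The part of such cells in the *Ube2d2a* value was not tested. *Ube2d3* and *Ube2w* overlapped between the groups, and *Ube2h* lay lower with LPS by a log2 fold change of −0.61 (adjusted p = 0.224).

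*Ube2m* encodes an E2 of NEDD8, a ubiquitin-like modifier that switches on cullin ligases. It had 54921.5 on both LPS arrays, against 32929.8 and 36845.5 with PBS (log2 fold change 0.66, limma adjusted p = 0.135). The equal LPS values came from the quantile normalization, as the raw signals were 50546 and 58990 with LPS, against 37864 and 32907 with PBS. The groups lay apart, without a call.

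The E2 pair that builds K63-linked chains on TRAF6 was not called. *Ube2n*, the catalytic partner, had 4431.4 and 4276.2 with LPS, against 3145.5 and 7109.2 with PBS. The PBS replicates lay on either side of the LPS arrays, and the interval of the log2 fold change ran from −1.19 to 0.95. Its non-catalytic partner *Ube2v1* was above background on 1 array only. *Ube2v2*, the partner known from DNA damage tolerance, had 454.0 and 388.8 with LPS, not above background, against 759.0 and 889.5 with PBS, above background. The log2 means of this probe were 8.71 ± 0.16 with LPS and 9.68 ± 0.16 with PBS (SD, n = 2 each; limma adjusted p = 0.0770). Its other probe, above background on 1 of the 2 LPS arrays, had 109.5 and 885.0 with LPS, against 715.0 and 901.8 with PBS. The groups overlapped on that probe, so no fold is given for the gene.

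The E2 enzymes of protein quality control and the cell cycle had small fitted changes. Those of endoplasmic reticulum-associated degradation, *Ube2g1*, *Ube2g2*, *Ube2j1* and *Ube2j2*, had log2 fold changes between −0.15 and 0.38. *Ube2j1* had the smallest standard error of the 79 genes, with 14932.3 and 15675.3 with LPS, against 15060.0 and 15016.0 with PBS, and an interval of −0.48 to 0.53. *Ube2c* and *Ube2s*, which start and extend chains for the anaphase-promoting complex, had log2 fold changes of 0.37 and 0.08. Of the E2 enzymes linked to DNA repair, *Ube2t*, which serves the Fanconi anaemia ligase, had 580.9 and 682.0 with LPS, above background on 1 array, against 1163.2 and 1898.6 with PBS (log2 fold change −1.24, SE 0.31, limma adjusted p = 0.0894). The RAD6 homologues *Ube2a* and *Ube2b* overlapped between the groups, as did *Ube2k*, and *Ube2r2* lay 0.59 higher with LPS on the log2 scale (adjusted p = 0.162). The other 7 genes named *Ube2* (*Ube2cbp*, *Ube2o*, *Ube2q1*, *Ube2q2*, *Ube2ql1*, *Ube2u* and *Ube2z*) ran from −0.57 to 0.60, with no call. Their groups did not overlap for any of the 7, against 59.7% of all genes, and *Ube2cbp* among them was above background on no array.

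Among the USPs, 10 genes were grouped under NF-κB and innate immune signalling. They held 2 calls (20%, against 5.54% of all genes), *Usp25*, higher with LPS, and *Usp2*, lower. *Usp2*, described above by other targets, was not above background on 3 of the 4 arrays, so this share rests on few genes. *Usp15*, which acts on TGF-β receptor and TRIM25 complexes, came next in this group, with 18425.0 and 16281.7 with LPS, against 11385.9 and 7827.2 with PBS. Its log2 fold change was 0.88 (SE 0.27, limma adjusted p = 0.130), with every LPS array above every PBS array. *Usp20*, a deubiquitinase of TRAF6 and of the adaptor STING in human and mouse cells, had 1775.0 and 1847.5 with LPS, against 3114.7 and 3361.7 with PBS. The replicates of *Usp20* lay close together and the groups were apart, but at a log2 fold change of −0.84 (SE 0.20) the adjusted p was 0.0855. *Usp4*, *Usp21*, *Usp27x* and *Usp38* had changes under 0.10 in size and overlapping groups, and *Usp11* and *Usp31* lay higher with LPS by 0.34 and 0.30 without passing the test.

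The 17 USPs of chromatin and DNA repair held 1 call, *Usp42*. *Usp16*, which removes ubiquitin from histone H2A, had 18477.0 and 20175.3 with LPS, against 11504.5 and 12048.2 with PBS (log2 fold change 0.71, SE 0.20, limma adjusted p = 0.117). *Usp7*, the deubiquitinase of MDM2 and p53, had 11454.0 and 12990.8 with LPS, against 7267.3 and 7694.1 with PBS (log2 fold change 0.71, SE 0.21, adjusted p = 0.123). In both genes the gap between the groups was wider than that between replicates on the probe used. The other probe of *Usp7*, above background on all 4 arrays, had 2405.9 and 1819.0 with LPS, against 1717.0 and 2008.5 with PBS. Its log2 difference was 0.17, and the groups overlapped on it. *Usp37* lay lower with LPS by a log2 fold change of −0.71 (limma adjusted p = 0.178). Its other probe, above background on 2 of the 4 arrays, had a log2 difference of 0.15. *Usp48* had a log2 fold change of −0.62 (limma adjusted p = 0.314), and its groups overlapped. The other 12 genes of this role (*Usp1*, *Usp3*, *Usp10*, *Usp22*, *Usp28*, *Usp36*, *Usp44*, *Usp45*, *Usp46*, *Usp47*, *Usp49* and *Usp51*) were all under 0.40 in size.

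None of the 13 USPs of endosomes, mitochondria, endoplasmic reticulum and the proteasome was called. *Usp35*, which is linked to mitochondrial quality control, had 1197.5 and 2106.5 with LPS, against 2286.3 and 3644.5 with PBS (log2 fold change −0.86, SE 0.39, limma adjusted p = 0.235). Its replicates lay almost as far apart as its groups, while those of *Usp30*, the deubiquitinase that opposes parkin on mitochondria, lay close, at 1482.9 and 1454.0 with LPS, against 2199.3 and 2038.0 with PBS (log2 fold change −0.53, adjusted p = 0.186). *Usp32*, of endosomes and the Golgi, lay 0.64 higher with LPS on the log2 scale (adjusted p = 0.182). *Usp14*, the deubiquitinase of the proteasome, *Usp8*, which acts on endosomal cargo, and *Usp5*, which takes apart free chains, had −0.28, 0.25 and 0.09, and *Usp9x*, *Usp9y*, *Usp13*, *Usp19*, *Usp24*, *Usp33* and *Usp34* were also under 0.30 in size. The 3 genes *Usp39*, *Usp53* and *Usp54* ran from −0.17 to 0.03. Of the 6 remaining genes, *Usp26*, *Usp29*, *Usp40*, *Usp43*, *Usp50* and *Usp6nl*, values ran from −0.53 (*Usp43*, not above background with LPS) to 0.54 (*Usp29*), with no call.

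Several genes were seen by more than 1 probe, and these probes differed. Of the 79 genes, 18 had several probes, giving 19 pairs of the brightest with another probe. The pair had the same sign in 11 and opposite signs in 8, with a median difference of 0.409 on the log2 scale. Both probes were above background on all 4 arrays in 11 of the 19 pairs, which are not the same 11. Among the pairs of opposite sign, the other probes of *Ube2m* and *Usp34* were above background on no array, and that of *Usp37* on 2. Among the genes given above with small changes, the other probe of *Usp19* had 0.69 in place of −0.24. That of *Ube2g2* had 0.44 in place of −0.15. Both of these other probes were above background on all 4 arrays. The probes of 3 genes given here differed by over 1. The second probe of *Ube2d2a* had 21062.0 and 20838.5 with LPS, against 16281.7 and 18847.0 with PBS, a log2 difference of 0.26 in place of −1.47. So the lower signal of this gene with LPS was seen by 1 of its 2 probes. The second probe of *Ube2l3* had 48330.5 and 47081.5 with LPS, against 63649.7 and 46763.0 with PBS (−0.19 in place of −1.24), and the second probe of *Usp6nl* had 793.8 and 2900.6 with LPS, against 2856.1 and 2418.5 with PBS (−0.79 in place of 0.28). *Usp25*, *Usp42* and *Usp2* had 1 probe each. Probe sequences were not used here, so whether the probes of close relatives such as *Ube2d1*, *Ube2d2a* and *Ube2d3*, or *Usp9x* and *Usp9y*, pick up each other's transcripts was not tested.

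**Figure D4:**
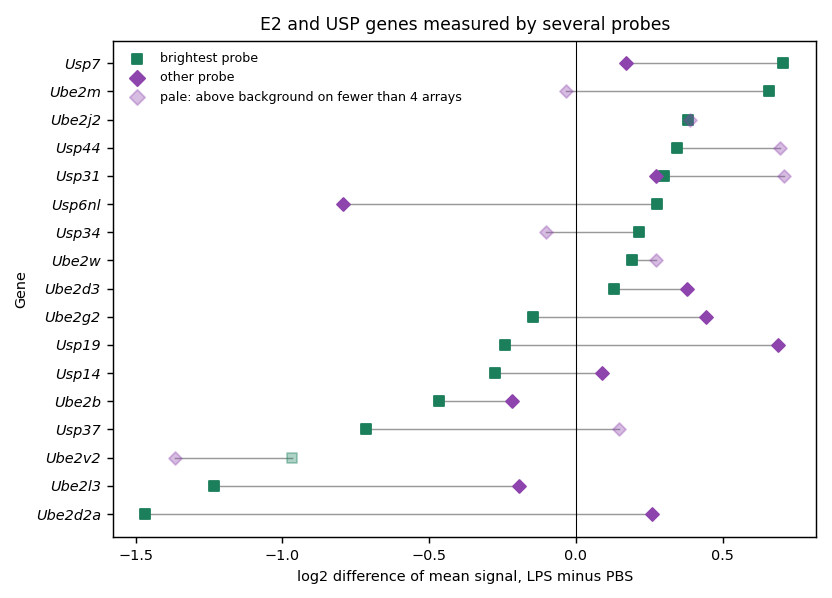
Log2 difference of mean signal, LPS minus PBS, for each probe of 17 E2 and USP genes with several probes, squares for the brightest probe, diamonds for other probes and pale symbols for probes above background on fewer than 4 arrays. The probes of *Ube2d2a*, *Ube2l3* and *Usp6nl* lie more than 1 apart.

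The replicates of these genes mostly lay close together. The median gap between replicates was 0.214 on the log2 scale for the LPS pair and 0.194 for the PBS pair, against 0.301 and 0.235 over all genes. A gap over 1 was found for 2 of the 79 genes in the LPS pair, of which *Ube2d2a* had the wider gap (2.07), and for 1 in the PBS pair, *Ube2n* (1.18).

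Other genes of the pathway were counted for context, in lists of E1 enzymes, E2 enzymes with other names, ubiquitin and modifier precursors, other deubiquitinase families, and SENP and other modifier proteases. Of 75 listed genes 68 were measured and 3 passed the test (4.41%, against 5.54% of all genes), all 3 among the 32 measured genes of other deubiquitinase families. *Tnfaip3*, which encodes A20, the ubiquitin-editing inhibitor of NF-κB, had 100226.2 and 186089.0 with LPS, against 23543.8 and 25017.0 with PBS (log2 fold change 2.49, SE 0.34, limma adjusted p = 0.0255). *Otud1*, an OTU deubiquitinase, had 3813.8 and 2893.1 with LPS, against 979.3 and 1164.1 with PBS (1.64, SE 0.25, adjusted p = 0.0314). Both rose with LPS. *Mindy2*, a deubiquitinase of K48-linked chains, fell, with 943.5 and 965.0 with LPS, against 2767.0 and 3313.7 with PBS (−1.67, SE 0.21, adjusted p = 0.0221). None of the 9 E1 genes, 7 E2 genes with other names, 8 precursor genes and 12 modifier protease genes was called. At an unadjusted limma p under 0.05 there were 2 (22.2%), 3 (42.9%), 1 (12.5%) and 4 (33.3%) of them, against 25.9% of all genes. Over the 5 lists this made 21 of 68 genes (30.9%, against 25.9% of all genes), 11 of them among the 32 other deubiquitinases (34.4%). Of the 68 genes, 5 were higher and 16 lower at this level, against 12% and 13.9% of all genes. The median log2 fold change of the 68 was −0.283, against 0.038 for all genes. In the last list 9 of 12 genes had both LPS arrays below both PBS arrays, against 27.5% of all genes, and its median log2 fold change was −0.371.

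Windows of 300 bases around the transcription starts, most of each before the start, taken from RefSeq on GRCm38.p6, were listed for 62 of the 79 genes, in 73 windows, and were searched on both strands for 4 motifs. The NF-κB motif, GGGA and TTCC with any 2 bases between them, was in 0 of the 73 windows and in 1.47% of all 32851 windows. The STAT motif TTCNNNGAA was in 6 of the windows and in 8.3% of all. The windows of *Usp25* and *Usp2* held none of the 4 motifs, and *Usp42* had no window. The interferon-stimulated response element, GAAA 2 times with any 2 bases between, was in 3.44% of all windows and in that of 1 of these genes, *Usp49*, whose window held it 2 times and 1 of these is shown with the motif in capitals (chr17:47630534-47630563, plus strand, 5′ to 3′):
*Usp49*: agttctgggaGAAAAAGAAAcaacgctgaa
The signal of *Usp49* was 643.0 and 750.6 with LPS and 488.1 and 727.7 with PBS, with overlapping groups. The E-box CACGTG was in windows of 8 of these genes (11% of 73 windows) and in 7.15% of all windows. It is shown for *Ube2b*, whose window held it 3 times (chr11:52000779-52000808, chr11:52000845-52000874 and chr11:52000876-52000905, minus strand), and for *Usp16*, 1 of the 6 largest positive changes (chr16:87454896-87454925, plus strand), each 5′ to 3′ with the motif in capitals:
*Ube2b*, first position given: ggcgctggcggtCACGTGacttgacgtcac
*Ube2b*, second position given: gcgtcacaggcaCACGTGgttctagatact
*Ube2b*, last position given: aggctaggccatCACGTGacctgctctgat
*Usp16*: cactgcagtgaaCACGTGgcgggcctccca
The signal of *Ube2b* was 2474.6 and 1342.0 with LPS and 2992.3 and 2117.5 with PBS, again overlapping. No stretch shown held another of the 4 motifs. A match in these letters is a description of the window and does not show a site in use.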

How the data were processed

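RNA of 4 samples of mouse peritoneal macrophages (LPS and PBS, n = 2 each) was hybridised to single-colour arrays. The authors deposited a raw signal intensity per probe and array, a detection p-value, under 0.05 where a probe was taken as above background, and a spot flag of unstated meaning, carried by no probe of these genes. They used a scanner and software not given in the sources used here. Intensity values were taken as background-subtracted, since 60 on the array of LPS replicate 1 are at or below 0, down to −18. In a second table the authors deposited the same intensities times 1 constant per array (1.29 and 0.959 for LPS, 0.869 and 0.972 for PBS replicates 1 and 2), used as an alternative.

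Signals were quantile-normalized, converted to log2 with no floor and no filter on dim probes, and fitted with lmFit and eBayes of limma 3.58.1 (statmod 1.5.0) in R 4.3.3, with 2 residual and 3.11 prior degrees of freedom per gene and Benjamini-Hochberg adjustment over 19938 genes; 4 arrays limit the precision of every value. Of 26423 probes, 22815 had 1 symbol, 246 had several and 3362 had none; only the first were named. Of 19962 symbols, 17486 were current in RefSeq, 1906 were updated and 570 kept. The genes and lists were chosen with earlier results of these data known, the lists by function. Full statistics were given for each E2 or USP gene past the test and for the 6 largest positive and 6 largest negative changes among those above background on at least 2 arrays, both values for genes whose probes differ by over 1, and every related gene past the test was named. Other genes with values, such as *Usp7*, *Usp20*, *Usp30*, *Ube2n*, *Ube2m*, *Ube2j1*, *Ube2b* and *Usp49*, were chosen after their values were seen.

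The test was checked on simulated LPS and PBS arrays with 19938 genes and recovered 0% of 79 changes of 2-fold, 42.4% of 66 of 5-fold and 72.7% of 55 of 20-fold, with 1 false call among 69. Alternatives covered background correction, scaling, the second table, dim and flagged probes, several probes per gene, a block for the replicate number, the variance model, the test for a pair of groups that the study's statistics section names, and leaving out each array. A few genes are counted, but their values are not reported here.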

Additional observations from a re-analysis of the deposited data

Results flagged for a closer look

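A signal that the comparisons above did not use came from a probe that carries the symbols of *Gm19496* and *Usp12* together and was left out for that reason. It was above background on all 4 arrays, at 67362.7 and 71236.0 with LPS, against 23953.5 and 24976.0 with PBS, a log2 difference of 1.5. Which of the 2 transcripts it measures cannot be told from the table, and the difference was not tested.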

How the results depend on the processing

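The fit with the replicate block, for numbers that the labels share between groups without saying that they mark a shared batch (r = 0.239 between same-numbered deviations over genes, 2 pairs), called 1165 genes, the same 3 of the 79 E2 and USP genes and 5 related genes. Scaling by the 75th percentile called 529 genes, 1 of the 79 and 1 related gene, with 75.2% of the calls higher with LPS against 58.2% in the reported fit. The second deposited table called 438, 1 and 1 (74.7% higher) and, an alternative chosen after seeing the data, no scaling called 432, 1 and 1, where the median log2 fold change of all genes was −0.346 against 0.038. In each of these 3 the E2 or USP gene was *Usp25*. The methods' t-test called 0 genes, 0 of the 79 and 0 related genes after adjustment, and 3719 genes and 14 of the 79 before it. Leaving out 1 array gave 40 to 1056 genes, 0 to 3 of the 79 and 0 to 6 related genes. The count was 372 genes without LPS replicate 1, 1056 without LPS replicate 2 (39.3% higher), 151 without PBS replicate 1 and 40 without PBS replicate 2, and the 3 of the 79 called without LPS replicate 2 held *Ube2d2a* and *Usp25*. The only change of direction among the 13 genes chosen for full statistics was that of *Ube2d2a* read from its other probe, a log2 difference of 0.26. Over the other alternatives 171 of their 194 values kept direction and side of the threshold, 21 fell short of it and 2 newly passed it. *Usp25* lay between 2.23 and 2.58 and missed the threshold in 3 of 15 alternatives, *Usp42* lay between 1.29 and 1.74 and missed it in 8 of 15, and *Usp2* missed it in 10 of 14. Among the readings from other probes, *Ube2d2a*, *Ube2m* and *Usp37* were among those that changed sign. The probe concerned was above background on no array for *Ube2m* and on 2 for *Usp37*. Leaving these readings aside, 44 of the 79 genes kept their sign in every alternative, and the 35 that did not were at most 0.30 in size. The causes of these differences were not tested. In simulated data of 4 arrays, with 69 calls against 1104 in the real fit, the test recovered 0% of 2-fold changes. Recovery in the real fit was not measured, and a missed call does not show that a gene was unchanged.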
